A study of Mus musculus with 23 samples.

Results

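The genes described here are 7 genes of the tendon and myotendinous matrix: Tnc, Thbs4, Postn, Comp, Chad, Fmod and Tnmd. They were taken as every probe set whose gene symbol in the platform table is exactly 1 of these 7 names. The rule found 12 of the 22626 non-control probe sets, which are 7 of 12393 genes. Fmod has 6 probe sets and each of the others has 1. All 7 genes passed the filter on low signal (a log2 value above 5.83 on at least 4 of the 23 arrays), as did 9133 genes in all. Tnc is the dimmest of them, with 16 of 23 arrays above that value.

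Each of the 23 Affymetrix arrays carried RNA from the hindlimb muscle of a female mouse sample, strain C57BL/6J, age 77 days. In the flight experiment, gastrocnemius muscle came from mice flown for 11 days and 19 hours (spaceflight, n = 4) and from mice kept as long on the ground in an animal enclosure module (ground AEM, n = 4). In the calf experiment, calf muscle came from mice suspended by the tail for 12 days and then set back on their hindlimbs for 3.5 hours (reloaded, n = 5), from mice suspended for 12 days (suspension, n = 5) and from untreated mice housed 3 per cage (control, n = 5). Titles, source names and the series design name the flight groups alike and were followed, whereas the free-text notes of those 8 samples name them the other way round. If the notes were correct, each spaceflight difference below would change sign. Nothing in the labels ties a replicate number to a separate animal, so the tests compare samples and their spread may be technical.

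Tendon joins muscle to bone through collagen fibrils, and the myotendinous junction is the folded membrane at the fibre's end through which contractile force passes into that matrix. Tenascin-C (Tnc), thrombospondin-4 (Thbs4) and periostin (Postn) are secreted matricellular proteins that modify how cells hold on to matrix, and the first of them is known to be induced by mechanical load. Cartilage oligomeric matrix protein (Comp), a relative of thrombospondin-4, binds collagen and is abundant in loaded tendon. Chondroadherin (Chad) and fibromodulin (Fmod) are leucine-rich repeat proteins that bind collagen, and fibromodulin is known to regulate collagen fibril growth. Tenomodulin (Tnmd) is a membrane protein of tendon cells and a marker of their maturation, whose expression in mouse tendon depends on the transcription factor scleraxis.

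Scleraxis binds E-boxes, so the letters of that motif were looked up in the 250 bases before the start of each gene. RefSeq promoters of the build GRCm38.p6 were matched for 6 of the 7 genes, all but Comp. The promoters of the 3 genes that passed the test in a comparison below are shown, with each E-box (CANNTG, which reads the same on both strands) in capitals. The first lies at chr4:64047016-64047265 on the minus strand, the second at chr13:92794819-92795068 on the minus strand and the third at chr11:94564797-94565046 on the plus strand.
Tnc: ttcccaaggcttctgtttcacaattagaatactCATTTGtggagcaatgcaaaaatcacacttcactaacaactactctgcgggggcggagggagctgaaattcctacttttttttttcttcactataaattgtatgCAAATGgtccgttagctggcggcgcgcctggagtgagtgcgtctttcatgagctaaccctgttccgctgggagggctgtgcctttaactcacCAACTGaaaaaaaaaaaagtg
Thbs4: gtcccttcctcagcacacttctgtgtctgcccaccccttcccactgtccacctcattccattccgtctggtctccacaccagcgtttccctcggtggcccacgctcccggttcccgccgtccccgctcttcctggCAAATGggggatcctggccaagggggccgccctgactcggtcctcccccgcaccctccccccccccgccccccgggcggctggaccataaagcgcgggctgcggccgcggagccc
Chad: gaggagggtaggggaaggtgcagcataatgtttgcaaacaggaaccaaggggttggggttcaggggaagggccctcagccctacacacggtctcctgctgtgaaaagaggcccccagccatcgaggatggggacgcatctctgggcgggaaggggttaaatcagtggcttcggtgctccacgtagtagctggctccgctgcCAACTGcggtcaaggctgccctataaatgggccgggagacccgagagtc
Tnc has 3 E-boxes there, Thbs4 has 1 and Chad has 1. A later start listed for Tnc has 2. In the same window, 66.2% of the 32851 promoters of the table hold at least 1 E-box, so the motif does not single these genes out. Fmod also held 1, and 0 were found for Tnmd and Postn. The scleraxis-type form CATCTG, which is a subset of the E-box, was found on either strand in 14.4% of all promoters, and of the 6 genes it was found in Fmod, once. The TEAD motif GGAATG occurred at 2 places in Thbs4, against a share of 12.6% of all promoters with at least 1. The AP-1 motif TGANTCA (6.75% of all promoters) and the CArG box (1.47%) were found in 0 of these genes.

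The samples read as skeletal muscle: all 10 muscle fibre markers read between 11.97 and 14.07 on every array. These markers do not tell which muscle was taken or how much tendon came with it. The interquartile range of the log2 values on an array was 2.75 to 2.91 in the flight experiment and 2.20 to 2.46 in the calf experiment, so levels are not compared between the experiments. Suspension replicates 8 and 9 stood apart with the lowest ranges, 2.20 and 2.29, where each other calf array reached at least 2.31, and they had the lowest median correlations with their group among the suspension arrays, 0.985 and 0.989. Results that rest on them are also given without them. Because whole muscle was measured, fewer cells of a type and less RNA per cell cannot be told apart.

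In gastrocnemius muscle, all 7 genes had lower mean signal after spaceflight than in the ground enclosure, with log2 differences of -0.23 to -0.54. Their median difference was -0.51, against -0.01 over all genes tested, of which 53.0% lay below 0. Tnc alone passed the test, at the threshold used throughout: an adjusted p (Benjamini-Hochberg, all 9133 genes) under 0.05 in limma's moderated test. That 1 of 7 stands beside 5.64% of all genes called in this comparison. The groups did not overlap for 2 of the 7, against 12.4% of all genes. At an unadjusted p under 0.05 there were 4 of the 7, against 19.6% of all genes.

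Tnc read 5.28, 5.43, 5.54 and 5.47 on the spaceflight arrays, against 5.82, 5.62, 6.09 and 6.27 on the ground AEM arrays. Every spaceflight array lay below every ground AEM array. The log2 difference was -0.52 ± 0.12 (SE; 4 arrays per group; limma adjusted p = 0.0274), a signal 0.696 times that of ground AEM. These signals were low: 0 of 4 spaceflight arrays and 2 of 4 ground AEM arrays were above the filter value of 5.83. Tnc met the filter only with the calf arrays, where 4 of 5 reloaded, 5 of 5 suspension and 5 of 5 control arrays were above it. The call was lost when any of 5 arrays was left out, at adjusted p values of 0.0846 without ground AEM 3, 0.0674 without ground AEM 4, 0.0797 without spaceflight 8, 0.0634 without spaceflight 9 and 0.0546 without spaceflight 11, with log2 differences of -0.42 to -0.54.

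Thbs4 read 8.97, 9.02, 9.02 and 8.60 after spaceflight, against 9.10, 9.07, 9.59 and 10.01 in ground AEM muscle. The groups did not overlap here either, although ground AEM 1 and 2 sat close above the spaceflight arrays. The difference of -0.54 ± 0.18 did not pass (adjusted p = 0.110). It did pass, at 0.0195, when the spread was estimated over all 23 arrays. Postn, which supports collagen cross-linking, read 7.06, 6.99, 7.0 and 6.89 after spaceflight, against 6.82, 7.26, 7.56 and 8.05 in ground AEM muscle. The spaceflight arrays were tight, and the lowest ground AEM array lay below all of them. Its difference was -0.44 ± 0.19 (adjusted p = 0.219), and without ground AEM 1 it was -0.64 and passed (adjusted p = 0.0273). Comp read 6.86, 7.01, 7.02 and 6.53 after spaceflight, against 6.50, 6.93, 7.40 and 7.52 in ground AEM muscle, so the groups overlapped (-0.23 ± 0.19, adjusted p = 0.543).

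Of the leucine-rich repeat genes, Chad read 7.77, 8.11, 8.24 and 7.41 after spaceflight, against 7.70, 7.85, 8.41 and 8.89 in ground AEM muscle. The spread within each group exceeded the difference of -0.33 ± 0.23 (adjusted p = 0.470). Fmod read 9.41, 9.76, 9.68 and 9.23 after spaceflight, against 9.53, 9.60, 10.29 and 10.71 in ground AEM muscle. Ground AEM 1 and 2 fell among the spaceflight arrays, and the difference was -0.51 ± 0.22 (adjusted p = 0.216). The tendon cell marker Tnmd read 6.64, 6.96, 6.81 and 6.34 after spaceflight, against 6.51, 6.77, 7.45 and 8.07 in ground AEM muscle. Its ground AEM values spanned more than those of any other of the 7 genes, with a mean of 7.20 ± 0.70, and the spaceflight mean was 6.69 ± 0.27 (SD, n = 4 each). The difference of -0.51 ± 0.26 did not pass (adjusted p = 0.307).

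Ground AEM 4 was the highest array of its group for all 7 genes, and without it the median difference of the 7 genes was -0.23. The 7 genes did not all keep their sizes: Chad then stood at -0.11 and Comp at -0.09.

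**Figure D1:**
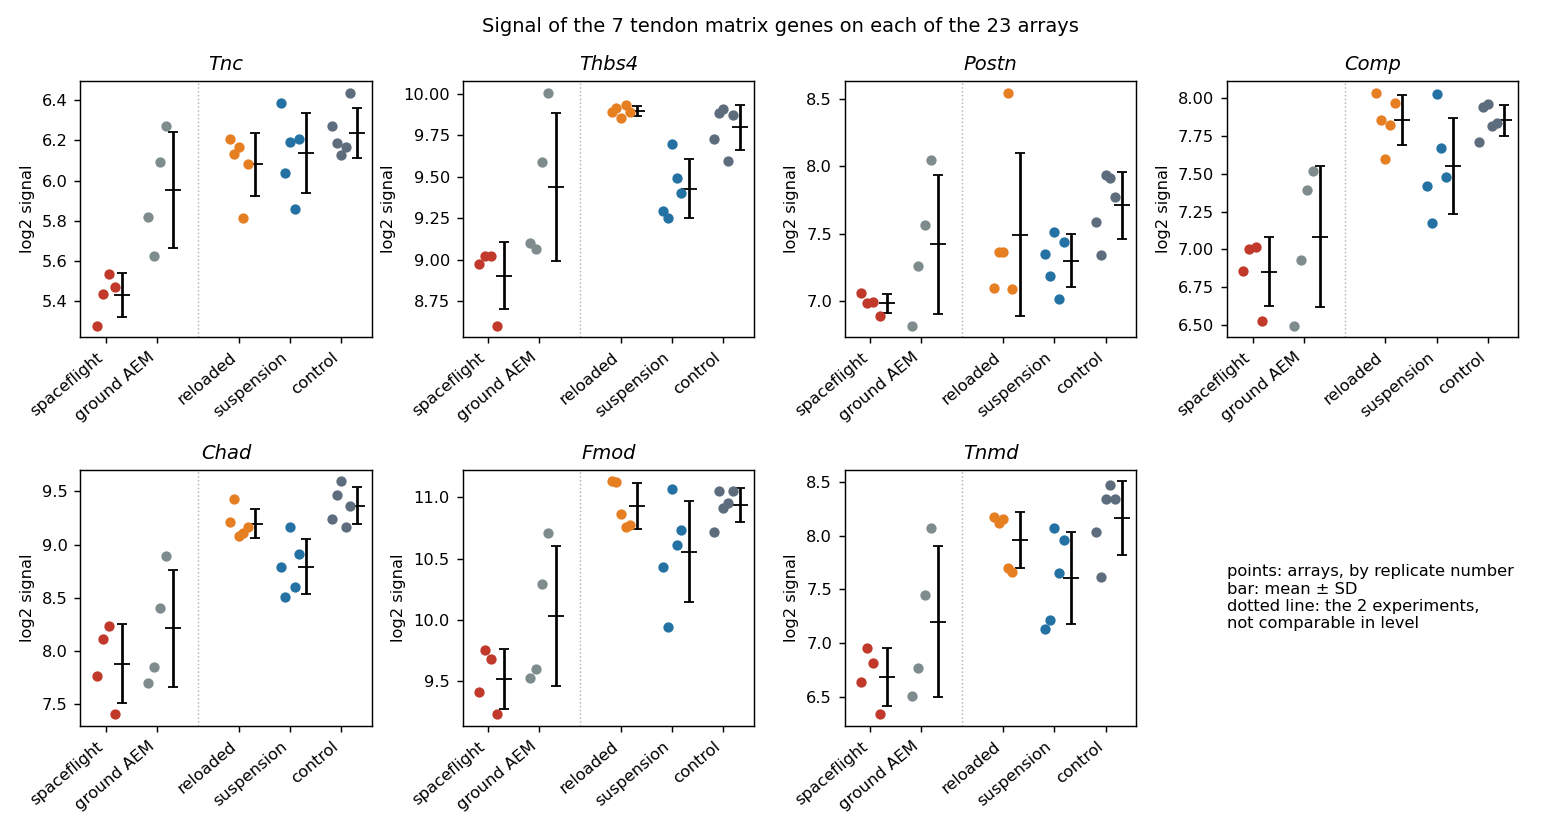
Deposited log2 signal of the 7 genes on each of the 23 arrays, with points in order of replicate number and bars giving the mean ± SD of each group. The spaceflight arrays lie below all ground AEM arrays for Tnc and Thbs4, the suspension arrays lie below all control arrays for Chad, and the reloaded arrays lie above all suspension arrays for Thbs4.

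In calf muscle, all 7 genes had lower mean signal after 12 days of suspension than in controls, by log2 differences of -0.10 to -0.57. Their median difference was -0.38, against 0.00 over all genes tested, of which 49.1% lay below 0. Chad passed the test, and 0.372% of all genes were called in this comparison. Non-overlapping groups were found for 1 of the 7, against 2.04% of all genes. At an unadjusted p under 0.05 there were 5 of the 7, against 8.65% of all genes.

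Chad read 8.79, 8.50, 9.16, 8.60 and 8.91 on the suspension arrays, against 9.24, 9.47, 9.59, 9.17 and 9.36 on the control arrays. The highest suspension array lay just under the lowest control array. The log2 difference was -0.57 ± 0.11 (SE; 5 arrays per group; limma adjusted p = 0.0225), a signal 0.672 times that of controls. The call was lost without suspension 9 (adjusted p = 0.0761) or without control 2 (0.0517), control 19 (0.0884) or control 22 (0.0657). Without suspension 8 and 9 together it was also lost, at -0.48 ± 0.12 (adjusted p = 0.159). Fmod, the other leucine-rich repeat gene, read 10.43, 9.95, 11.07, 10.61 and 10.73 after suspension, against 10.72, 11.05, 10.91, 10.95 and 11.05 in controls. Suspension 11 was the highest of these 10 arrays, and the difference of -0.38 ± 0.14 did not pass (adjusted p = 0.393). Without suspension 8 and 9, the Fmod difference was -0.13 (adjusted p = 0.798).

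Thbs4 read 9.30, 9.25, 9.70, 9.49 and 9.40 after suspension, against 9.73, 9.89, 9.91, 9.59 and 9.87 in controls. Suspension 11 overlapped the lowest control array. The difference was -0.37 ± 0.08, just outside the threshold (adjusted p = 0.0570). It passed without suspension 11 (adjusted p = 0.0164) or control 21 (0.0399), and it was -0.27 (adjusted p = 0.321) without suspension 8 and 9. Tnmd read 7.13, 7.21, 8.07, 7.65 and 7.96 after suspension, against 8.03, 7.62, 8.34, 8.47 and 8.34 in controls. The means, 7.60 ± 0.43 and 8.16 ± 0.34 (SD, n = 5 each), differed by -0.56 ± 0.18 (adjusted p = 0.292), and by -0.27 (adjusted p = 0.689) without suspension 8 and 9.

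Comp read 7.42, 7.18, 8.03, 7.67 and 7.48 after suspension, against 7.71, 7.94, 7.97, 7.82 and 7.84 in controls. Suspension 11 again stood above all controls, and the difference was -0.30 ± 0.12 (adjusted p = 0.430). Without suspension 8 and 9 it was -0.13 (adjusted p = 0.798). Postn read 7.35, 7.19, 7.51, 7.02 and 7.44 after suspension, against 7.59, 7.34, 7.94, 7.92 and 7.77 in controls (-0.41 ± 0.20, adjusted p = 0.576). Tnc read 6.39, 6.04, 6.19, 5.86 and 6.21 after suspension, against 6.27, 6.19, 6.13, 6.17 and 6.44 in controls. It differed least of the 7, by -0.10 ± 0.10, with a 95% confidence interval of -0.30 to 0.10 and an adjusted p of 0.811.

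**Figure D2:**
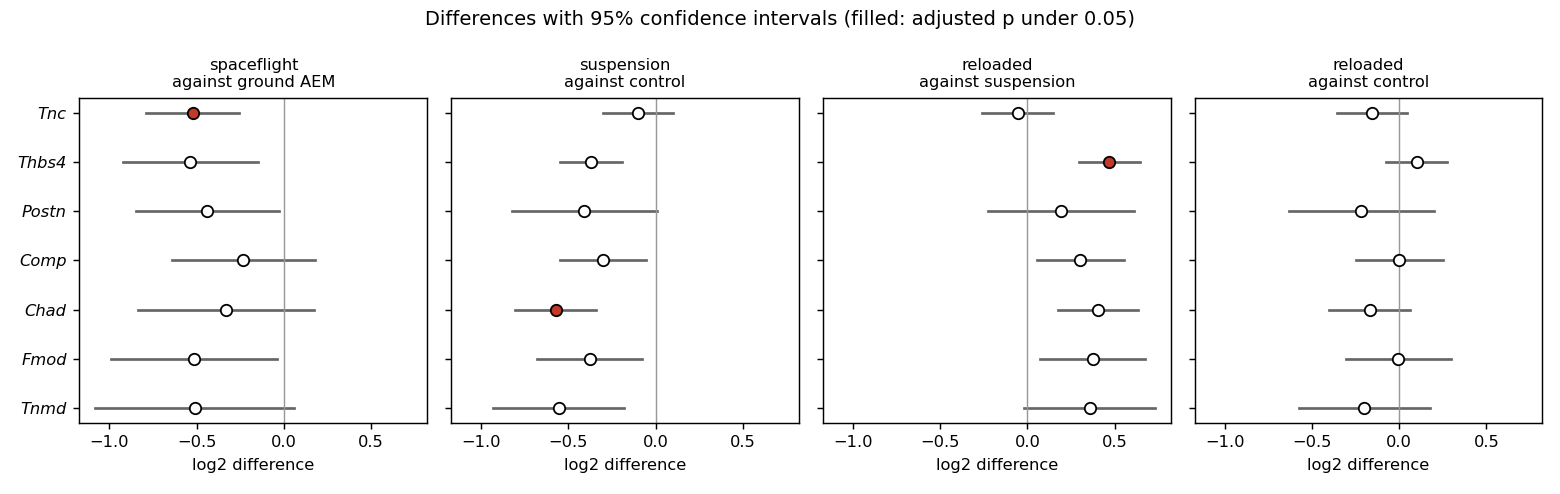
Log2 differences of the 7 genes in each of the 4 comparisons of groups, with unadjusted 95% confidence intervals from limma; filled points passed at an adjusted p under 0.05. Points lie left of 0 for all 7 genes in spaceflight against ground AEM and in suspension against control, and right of 0 for all but Tnc in reloaded against suspension.

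After 3.5 hours of reloading, 6 of the 7 genes had higher mean signal than in suspended muscle. Their median log2 difference over the 7 was 0.36, against -0.02 over all genes tested, of which 58.1% lay below 0. Thbs4 passed the test, and 0.58% of all genes were called in this comparison, which shares its suspension arrays with the one above. Groups that did not overlap were found for 1 of the 7, against 1.46% of all genes, and 4 of the 7 had an unadjusted p under 0.05, against 9.14% of all genes.

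Thbs4 read 9.89, 9.91, 9.86, 9.93 and 9.89 on the reloaded arrays, against 9.30, 9.25, 9.70, 9.49 and 9.40 on the suspension arrays. The reloaded arrays were the tightest group of any of the 7 genes (SD 0.03) and all lay above the highest suspension array. The difference was 0.47 ± 0.08 (limma adjusted p = 0.00503), a signal 1.38 times that of suspension. The call held when any single array was left out (adjusted p 0.000757 to 0.0226). Without suspension 8 and 9 together the difference was 0.37 ± 0.08 and did not pass (adjusted p = 0.0739), and with the spread estimated over all 23 arrays it did not pass either (adjusted p = 0.105).

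Chad read 9.21, 9.42, 9.08, 9.11 and 9.17 after reloading. Its lowest reloaded array lay below suspension 11, and the difference from suspension was 0.40 ± 0.11 (adjusted p = 0.156). It passed without suspension 11 (0.50, adjusted p = 0.0183). Fmod read 11.13, 11.13, 10.86, 10.75 and 10.78 after reloading (0.37 ± 0.14 against suspension, adjusted p = 0.436). Comp read 8.04, 7.86, 7.60, 7.82 and 7.97 after reloading (0.30 ± 0.12, adjusted p = 0.454). For both, suspension 11 lay within the range of the reloaded arrays. Tnmd read 8.18, 8.12, 8.15, 7.70 and 7.66 after reloading (0.36 ± 0.18, adjusted p = 0.552). Without suspension 8 and 9, the differences of Fmod, Comp and Tnmd were 0.13, 0.13 and 0.07, and the median over the 7 genes was 0.13.

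Postn read 7.10, 7.36, 7.37, 8.55 and 7.09 after reloading. Reloaded 18 stood far above the other reloaded arrays, and the difference from suspension, 0.19 ± 0.20 (adjusted p = 0.773), was -0.07 without that array. Tnc read 6.21, 6.13, 6.17, 5.81 and 6.08 after reloading, within the range of the suspension arrays but for reloaded 18, which held its lowest value. Its difference was -0.06 ± 0.10 (adjusted p = 0.857), with a 95% confidence interval of -0.26 to 0.15.

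Reloaded and control muscle were compared to see what separated them after both steps. The 7 genes had 0 calls in limma and 0 at an unadjusted p under 0.05, where 0.318% and 7.27% of all genes had one. Groups that did not overlap were found for 0 of the 7, against 2.64% of all genes. Thbs4 differed by 0.10 (95% confidence interval -0.08 to 0.28), Chad by -0.17 (-0.40 to 0.06) and Fmod by -0.01 (-0.31 to 0.30). Comp differed by 0.00 (-0.25 to 0.25), Tnmd by -0.20 (-0.57 to 0.17), Postn by -0.22 (-0.63 to 0.20) and Tnc by -0.16 (-0.36 to 0.05). These intervals bound the differences and do not show equal signal.

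Whether flight and suspension changed these genes unequally was tested as the difference between the effects, each taken within its own experiment. Here 0 of the 7 genes passed in limma, where 1.27% of all genes did, and 1 of the 7 had an unadjusted p under 0.05, against 12.2% of all genes. Tnc had the largest difference, -0.42 ± 0.16 (adjusted p = 0.253), from a flight effect of -0.52 and a suspension effect of -0.10. So its call after flight and its lack of one after suspension do not amount to a shown difference. Chad, called after suspension and not after flight, had a difference of 0.24 ± 0.26 (adjusted p = 0.763). Against the effect of suspension plus reloading, 0 of the 7 passed in limma, where 2.74% of all genes did. Unadjusted p was under 0.05 for 2 of the 7, against 13.8% of all genes, and all 7 differences lay below 0, against 48.2% of all genes. Thbs4 came closest, at -0.64 ± 0.19 (adjusted p = 0.0711), and it passed without ground AEM 1 (adjusted p = 0.0290) or ground AEM 2 (0.0191). These differences share the flight arrays, and also the control arrays, with each other.

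Fmod is the 1 gene of the 7 with several probe sets, 5 of which carry the suffix of probe sets in which some probes may match other sequences. Its 6 probe sets had log2 differences of -0.35 to -0.60 for spaceflight against ground AEM and -0.24 to -0.54 for suspension against control. For reloaded against suspension they had 0.06 to 0.50. Within each of these comparisons they ran the same way, and 0 of 6 passed. For reloaded against control they did not all run 1 way, from -0.18 to 0.01, and 0 of 6 passed. The lowest there, the dimmest probe set, had an unadjusted limma p of 0.0319 (adjusted p = 0.828). Over all 12 probe sets tested without the filter, 1 passed for spaceflight against ground AEM (Tnc), where 3.92% of all probe sets did. For suspension against control 1 passed (Chad), where 0.234% did, for reloaded against suspension 1 passed (Thbs4), where 0.38% did, and for reloaded against control 0 passed, where 0.203% did.

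The genes moved together from array to array within the flight groups. With group means removed, Pearson's r was above 0 for 21 of 21 pairs on the 8 flight arrays, with a median of 0.90 and a range of 0.66 to 0.99, and Spearman's rho ran from 0.64 to 0.98. An exact two-sided permutation of arrays within groups, adjusted over the 21 pairs, put 14 pairs under 0.05 by r and 3 by rho. The closest pair was Fmod and Tnmd (r = 0.99, rho = 0.98, exact p = 0.00174, the smallest that the 576 rearrangements can give, adjusted p = 0.0219). The loosest was Tnc and Comp (r = 0.66, rho = 0.74, exact p = 0.236, adjusted p = 0.248), and 0 of the 6 pairs with Tnc passed. Without the 2 arrays farthest from the median of the first gene, r ran from 0.41 to 0.99 with a median of 0.84. The share of all gene pairs that reach such values on these arrays was not counted.

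Of the 8 flight arrays, 6 lay on 1 side of their group mean for all 7 genes. Ground AEM 4 lay above its group mean for 7 of 7 genes, by 0.60 on average, and ground AEM 3 for 7 of 7, by 0.21. Ground AEM 1 lay below for 7 of 7, by -0.48, and ground AEM 2 for 7 of 7, by -0.32. On the spaceflight side, replicates 9 and 10 lay above for 7 of 7 genes, each by 0.15 on average. Some of these deviations were close to 0: Tnc 0.005 and Postn 0.006 on replicate 9, and Postn 0.015 on replicate 10. Replicate 11 lay below for 6 of 7, with Tnc as the exception. Spaceflight 8 was mixed, with 3 genes above its group mean and 4 below, all between -0.15 and 0.07. Passing pairs numbered 0 without spaceflight 11, 9 without spaceflight 10, 6 without ground AEM 3 and 6 without ground AEM 4. The median r in these settings was 0.93, 0.91, 0.91 and 0.88, and with 1 array fewer the smallest p that the rearrangements can give was 0.00694.

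**Figure D3:**
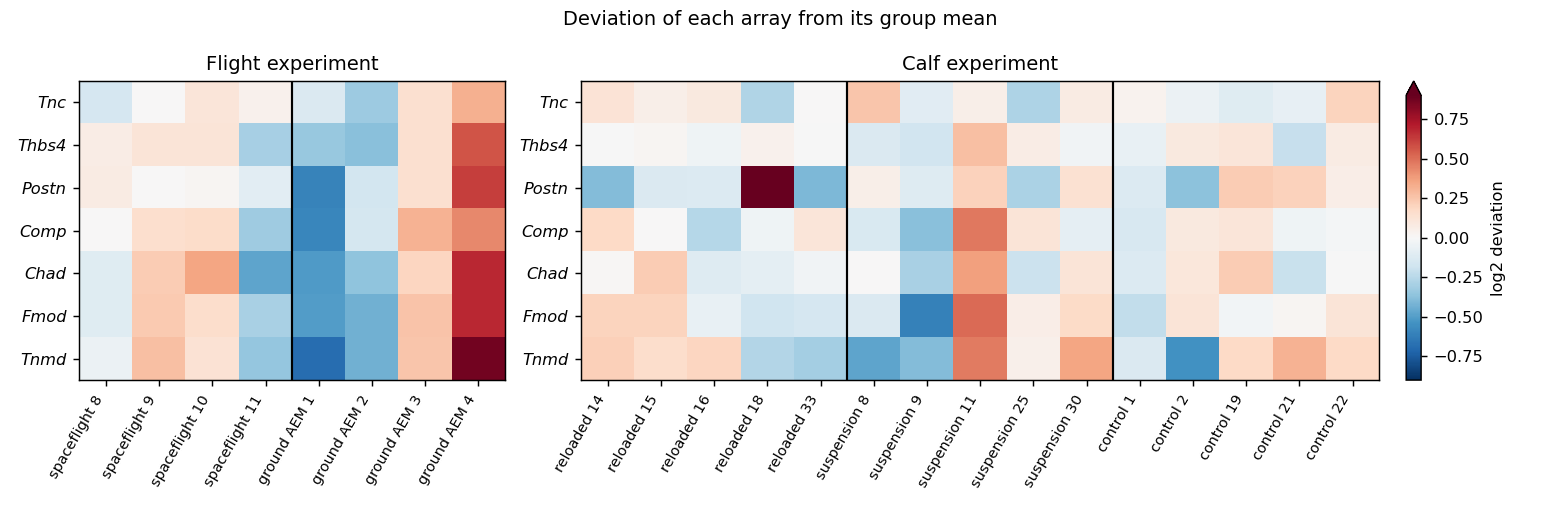
Log2 deviation of each array from its group mean, with 1 row per gene and 1 column per array; red is above and blue below the mean, and black lines separate the groups. Whole columns share a colour at ground AEM 1 and 2 (below), ground AEM 3 and 4 (above), suspension 9 (below) and suspension 11 (above), and Postn stands alone at reloaded 18, where its deviation of 1.05 exceeds the colour scale.

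On the 15 calf arrays the pairs varied more widely. Over the 21 pairs, r had a median of 0.30 (range -0.32 to 0.79) and was above 0 for 16. The highest values lay among Thbs4, Comp, Chad and Fmod, a set picked here by its r, whose 6 pairs had an r of 0.67 to 0.79. Without the 2 farthest arrays, Chad and Comp had 0.28, Fmod and Comp 0.40 and Chad and Fmod 0.45, whereas Thbs4 had 0.52 with Chad and 0.65 with Fmod. Thbs4 and Comp, both of the thrombospondin family, were the 1 pair that passed (r = 0.79, rho = 0.73, exact p = 0.00135, adjusted p = 0.0283 over 21 pairs, and 0.0490 for rho). Their r was 0.77 without the 2 farthest arrays. Of the 21 pairs, 0 passed without suspension 8, 9, 11 or 30, reloaded 16 or control 19, 2 passed without control 2 and 4 without suspension 25. The median r over the 21 pairs was 0.13 without suspension 11 and 0.18 without suspension 9. Fmod and Comp had an r of 0.79 with an adjusted exact p of 0.0768. Tnmd was closest to Fmod (r = 0.65, adjusted exact p = 0.0890).

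Pairs with Tnc or Postn had lower values. The median r of their pairs was 0.04 for Tnc and 0.02 for Postn, and their own pair had the lowest value of all (r = -0.32, adjusted exact p = 0.566). Without the 2 farthest arrays, the median r of the 21 calf pairs was 0.10. By calf r among 9132 genes, the closest of the 7 had rank 5 for Chad (Fmod) and 6 for Thbs4 (Comp). That rank was 30 for Fmod (Comp), 48 for Comp (Fmod), 1575 for Tnc (Chad) and 2478 for Postn (Tnmd). Suspension 11 lay above its group mean for 7 of 7 genes, by 0.34 on average, and suspension 9 below for 7 of 7, by -0.29. No calf array outside the suspension group moved all 7 genes 1 way.

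**Figure D4:**
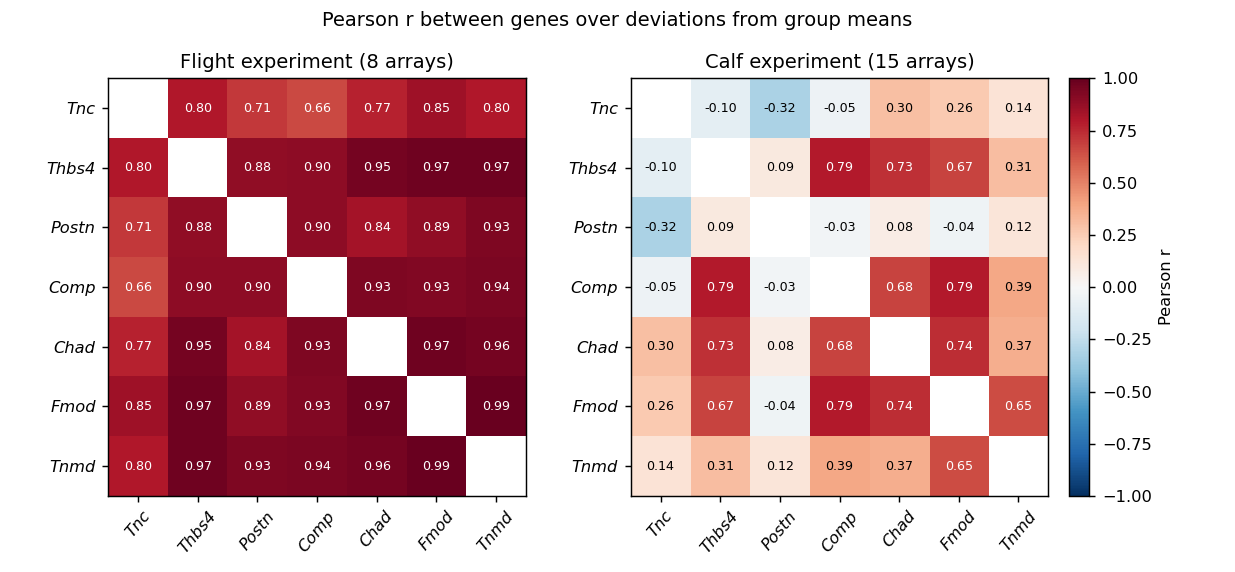
Pearson r for each pair of the 7 genes over deviations from group means, on the 8 flight arrays and on the 15 calf arrays. Flight values lie between 0.66 and 0.99; calf values are 0.67 to 0.79 among Thbs4, Comp, Chad and Fmod and between -0.32 and 0.30 for every pair with Tnc or Postn.

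Beyond the 7 genes, 73 other tendon and junction genes were listed, of which 64 are on the array and 59 passed the filter. After spaceflight 1 was called higher and 9 lower, where 5.64% of all genes were called in either direction. The median log2 difference over the 59 was -0.09, against -0.01 over all genes tested. Of the 59, 39 lay below 0, against 53.0% of all genes. Of the 15 fibrillar collagen and assembly genes, 5 fell, with Col1a1 at -0.99 ± 0.23 (adjusted p = 0.0256) and Col1a2 at -0.73 ± 0.19 (adjusted p = 0.0449). These encode the chains of type I collagen, the main fibril of tendon. Col3a1, the type III collagen chain, fell by 0.61 (adjusted p = 0.0376), and Ccn2, a connective tissue growth factor responsive to load, fell by 0.55 (adjusted p = 0.0327). Ccn1, a related matricellular gene, rose by 0.83 (adjusted p = 0.000991). Of the 12 proteoglycans and collagen-binding matrix genes 0 passed in limma, with a median of -0.15. At an unadjusted p under 0.05 there were 3 of the 12, against 19.6% of all genes. Of the 7 relatives of thrombospondins, tenascins and periostin 1 fell (Matn4), of the 13 junction and adhesion genes 1 fell (Ilk), and of the 12 transcription factors and signals 2 fell (Ccn2 and Tgfb1) and 1 rose.

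After suspension 0 of the 59 passed in limma, against 0.372% of all genes, and 21 had an unadjusted p under 0.05, against 8.65%. Of the 59, 46 lay below 0 with a median of -0.14, against 49.1% and a median of 0.00 over all genes. Reloaded against suspension had 2 that rose, where 0.58% of all genes were called in either direction. These were Egr1 by 1.06 ± 0.24 (adjusted p = 0.0499) and Ccn1 by 0.86 ± 0.16 (adjusted p = 0.00920). The median over the 59 was 0.11, against -0.02 over all genes. Egr1 is an immediate-early factor that is also known to drive tendon collagen genes. Against control, Ccn1 was the 1 that rose in reloaded muscle, by 0.83 ± 0.16 (adjusted p = 0.0226), where 0.318% of all genes were called.

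Deviations of these other genes were set against the mean deviation of the 7. On the flight arrays the median r was 0.85 for the proteoglycans, 0.85 for the collagens and 0.84 for the relatives, with all of their members above 0. It was -0.15 for the junction and adhesion genes and -0.01 for the transcription factors and signals, and 0.04 over all genes tested. On the calf arrays the same lists had medians of 0.46, 0.50, 0.57, 0.00 and 0.11, against -0.06 over all genes. These correlations share arrays and describe them.

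Markers of other tissues were read beside these results. All 7 tested fibroblast markers had an r above 0 with the mean of the 7 genes on the flight arrays, against 53.0% of all genes. On the calf arrays 6 of 7 did, against 45.3% of all genes. The median r of these markers was 0.73 on the flight arrays and 0.36 on the calf arrays. Between the flight groups, 1 of the 7 was called, Dpep1, higher by 0.56, and the median difference was 0.05. Their summed linear level was 5207 to 5336 in spaceflight muscle and 4657 to 5830 in ground AEM muscle. That sum is mostly Gsn, which read 11.61 to 12.15 over the 23 arrays, where no other fibroblast marker read above 8.24. The part of fibroblast content in the result was not tested. The muscle fibre markers had a median r of -0.02 on the flight arrays, and their summed level was 113139 to 114581 in spaceflight muscle, against 110607 to 119676 in ground AEM muscle.

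Of 9 cartilage markers, Sox9, Matn1, Matn3, Cnmd and Hapln1 were above the filter value on 0 of 23 arrays. Col9a1 and Prg4 were above it on all 23 arrays, Col2a1 on 19 and Acan on 17. The median r of these 4 with the mean of the 7 genes was 0.08 on the flight arrays and -0.18 on the calf arrays. Prg4 (lubricin, made by joint lining and tendon surfaces as well) read 6.38 to 8.66. Adipocyte markers differed between the flight groups, with 4 of 5 called higher after spaceflight and a summed level of 3438 to 4208 against 2354 to 2640 in ground AEM muscle; their median r with the 7 genes was 0.25. Between suspension and control, the myelin gene Mbp was higher by 1.87 (adjusted p = 0.0287), and the summed Schwann cell level was 2692 to 4512 after suspension, against 1183 to 1572 in controls. On the calf arrays all 3 Schwann cell markers had an r below 0 with the mean of the 7 genes, with a median of -0.26, and on the flight arrays all 3 had one above 0, with a median of 0.59. Of 5 endothelium markers, Kdr was called lower after spaceflight (-0.32, limma adjusted p = 0.0330). Their summed level was 778 to 812, against 840 to 848 in ground AEM muscle. Their median r with the mean of the 7 genes was 0.04 on the flight arrays and 0.17 on the calf arrays. Of the macrophage, skin and bone markers 0 were called between the flight groups, with median flight r of 0.27, 0.01 and 0.37. The part of cartilage, fat, nerve or these other tissues in the results was not tested.

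The genes whose calf deviations were most like the mean of the 7, among 9126 others, were Axl (r = 0.92), Lin7c (0.91), Fdps (0.90), Usp24 (0.88) and Npc2 (0.88). Without the 2 farthest arrays, these had 0.73, 0.79, 0.68, 0.83 and 0.69. On the flight arrays, Axl, a receptor kinase, also had an r of 0.93 and Fdps, an enzyme of isoprenoid synthesis, 0.86. Lin7c had 0.65 there, Usp24 0.14 and Npc2 0.01. For single genes, Comp was most like Prg4 (r = 0.90) and Igfbp6 (0.89) on the calf arrays, and these had 0.76 and 0.84 on the flight arrays. Next for Comp came Mfge8 (0.89), Tor1aip2 (0.89) and Anxa6 (0.88), which had -0.36, -0.05 and 0.44 on the flight arrays. Postn was most like Mfap5, a microfibril protein (r = 0.80 on calf arrays, 0.58 without the 2 farthest arrays, and 0.93 on flight arrays), and Bgn, the proteoglycan biglycan, was also among its nearest 5 (r = 0.74, and 0.39 without the 2 farthest). The others among the nearest 5 of Postn were Mal, Cfl2 and Tmem100, with flight r of 0.62, 0.27 and -0.14. Chad was most like Gpc4 (r = 0.82, and -0.14 on flight arrays). The rest of its nearest 5 were Igfbp7 (0.79, and 0.81 on flight arrays), Serpinf1 (0.76 and 0.94), Fdps (0.74 and 0.75) and Fmod (0.74 and 0.97). Without the 2 farthest arrays, calf r with Chad was 0.78 for Gpc4, 0.70 for Igfbp7, 0.63 for Serpinf1, 0.44 for Fdps and 0.45 for Fmod. Fmod was most like Fdps (r = 0.95, and 0.85 on flight arrays). Poglut1, Tmem185a, Aldh4a1 and Mif4gd came next, with flight r of 0.66, 0.68, 0.46 and 0.02. The nearest genes of Tnc (Vgll4), Thbs4 (Sec61a2) and Tnmd (Bloc1s3) had calf r of 0.84, 0.84 and 0.91 and flight r of -0.02, 0.30 and 0.07. The rest of the nearest 5 of Thbs4 had flight r of 0.02 (Asf1a), -0.52 (Zzz3), 0.56 (Fam3c) and 0.93 (Axl). Those of Tnmd had 0.11 (Eif4a2), 0.24 (Ndufc1), 0.85 (Mrpl50) and -0.08 (Bmi1), and those of Tnc had -0.28 to 0.18.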

How the data were processed

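RNA from 23 muscle samples was hybridised to 1 Affymetrix array each. The authors deposited log2 values for 22690 probe sets; RMA and MAS5 are named in the submitters' processing notes, and which of them made the table, and whether all arrays were normalized together, the sources used here do not say. The values were used without further normalization. After 64 control probe sets were left out, the probe set with the highest mean over the 23 arrays stood for its gene. Platform symbols can be old.

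Groups were compared with limma 3.58.1 (lmFit, eBayes, two-sided) in R 4.3.3 over 9133 genes, the flight and calf arrays being fitted apart and all 23 together for differences of effects; the fit was tested on simulated data. Confidence intervals are at 95%. Precision is limited by how many arrays there are: the standard error of a gene's log2 difference had a median of 0.09 in each comparison of groups. Pairs of genes were tested by exact enumeration within groups (1728000 rearrangements for calf arrays, 576 for flight arrays) in place of the resampling first written down. No source used here gives a batch or scan date. The other tendon genes named are, per comparison, up to 4 called in each direction by size, and others are named without values; nearest genes are the top 5 by r on the calf arrays. The members and lists were chosen with earlier results of these data known. The alternatives were other filters, probe set choices, normalizations, variance models, thresholds and sets of arrays.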

Additional observations from a re-analysis of the deposited data

Results flagged for a closer look

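Over the 60 combinations of probe set and group, 3 held a sample far from the others, where chance gives about 1 in 20. Postn read 8.55 on reloaded 18, against 7.09 to 7.37 on the other reloaded arrays. Tnc had its lowest reloaded value on the same array. Thbs4 read 8.60 on spaceflight 11, against 8.97 to 9.02 on the other spaceflight arrays, and that array lay below its group mean for 6 of the 7 genes. The dimmest Fmod probe set read 6.59 on reloaded 15, against 6.66 to 6.69 on the other reloaded arrays, a gap of less than 0.1 on the log2 scale.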

How the results depend on the processing

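Over the alternatives other than exchanging the flight groups, the 7 genes gave 974 values, of which 909 kept their direction and side of the threshold, 15 lost a call, 10 gained one and 40 changed sign, all of these uncalled. Counts of the 7 genes called changed as follows. For spaceflight against ground AEM, 1 became 0 with the filter at the 60th percentile, where Tnc is not tested, 0 at an adjusted p under 0.01 and 2 with all 23 arrays in the fit. For suspension against control, 1 became 2 with the stricter filter or with trend and robust estimation, and 0 at an adjusted p under 0.01, with all 23 arrays or without suspension 8 and 9. For reloaded against suspension, 1 became 0 with all 23 arrays or without suspension 8 and 9. For the flight effect minus the reloaded effect, 0 became 1 with array weights. Over every probe set of the 7 genes, 1 became 0 at an adjusted p under 0.01 in each of the first 3 comparisons, and 0 became 1 with array weights for the flight effect minus the reloaded effect. With single arrays left out, the calls among the 7 ran from 0 to 2 for spaceflight against ground AEM and for suspension against control, from 1 to 2 for reloaded against suspension and from 0 to 1 for the flight effect minus the reloaded effect; over every probe set they ran from 0 to 2, 0 to 3, 1 to 4 and 0 to 1 in that order. The calf pairs that moved together fell to 0, against 1, with centred arrays or without suspension 8 and 9, and ran from 0 to 4 with single arrays left out; the flight pairs ran from 0 to 14. The median difference of the 7 for reloaded against suspension was 0.13 without suspension 8 and 9.

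Uncalled differences near 0 changed sign. For reloaded against control, Fmod was 0.0103 with quantile normalization and 0.0059 with centred arrays. For the flight effect minus the suspension effect, Comp was -0.093 with array weights and -0.10 without suspension 8 and 9, and Tnmd was -0.12 and -0.25. With single arrays left out, reloaded against suspension ran from -0.13 to 0.011 for Tnc and from -0.070 to 0.29 for Postn, and reloaded against control from -0.060 to 0.039 for Fmod and from -0.044 to 0.066 for Comp. The flight effect minus the suspension effect ran from -0.29 to 0.021 for Thbs4, -0.30 to 0.091 for Fmod, -0.13 to 0.21 for Comp, -0.19 to 0.33 for Tnmd and -0.23 to 0.18 for Postn. The flight effect minus the reloaded effect ran from -0.33 to 0.063 for Chad and from -0.42 to 0.042 for Postn.

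With the 2 flight groups exchanged, the differences become Tnc 0.52, Thbs4 0.54, Chad 0.33, Fmod 0.51, Comp 0.23, Tnmd 0.51 and Postn 0.44. The flight effect minus the suspension effect then has 4 calls, Tnc at 0.62, Thbs4 at 0.91, Chad at 0.91 and Fmod at 0.89, and Postn is uncalled at 0.85. The flight effect minus the reloaded effect has 1 call, Tnc at 0.68, and the uncalled genes are Thbs4 at 0.44, Chad at 0.50, Fmod at 0.52, Comp at 0.23, Tnmd at 0.71 and Postn at 0.66. Apart from these sign changes, fewer samples and fewer genes, the cause of a changed call was not tested. No paired analysis was possible because groups compared within an experiment share no replicate numbers.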

Other observations

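A ranking of all genes by likeness to the mean of the 7 on the flight arrays was added after the values were seen. Its first 5 were Kera (r = 0.99), Serpinf1 (0.99), Nupr1 (0.98), Ogn (0.98) and Sod2 (0.97). Kera and Ogn, which encode the leucine-rich proteoglycans keratocan and osteoglycin, had 0.57 and 0.51 on the calf arrays, and Serpinf1, a secreted factor of connective tissue cells, had 0.82. The order describes these 8 arrays.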
